A study of Mus musculus with 6 samples.

Results

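Dense clusters of shared LncMyoD regions were places where many short stretches of captured DNA lay close together in both deposited peak lists. A shared region was the union of peaks of the lists of replicates 1 and 2 that overlapped by at least 1 bp, with at least 1 peak from each list, on chromosomes 1 to 19. A region was kept when it belonged to a run of 5 or more consecutive shared regions that spanned 20 kb or less, first start to last end, and overlapping runs were merged into a cluster. The rule found 955 clusters with 5590 regions, which was 6.1% of the 91707 shared autosomal regions. The positions of the peaks in both lists chose the members, so all values below describe them, and none is a test.

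The study mapped DNA bound by LncMyoD in C57BL/6 mouse myotubes, which were formed when primary myoblasts, with skeletal muscle given as their source, were held 2 days in DMEM with 2% horse serum. Its 6 samples were 2 captures with an odd probe pool, 2 captures with an even probe pool and 2 input DNA samples. Each list's name fits all 3 kinds of sample of its replicate, so no comparison of odd with even probes, or of capture with input, was possible, and nothing in the labels says that the replicates were separate cultures. The lists held 157214 peaks for replicate 1 and 179630 for replicate 2, in mm10 coordinates, with no read totals, so the depth is unknown.

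LncMyoD is a long non-coding RNA made from a gene next to Myod1, which encodes the master transcription factor of the muscle lineage, and it is known for a role in the differentiation of myoblasts. ChIRP fixes RNA to chromatin in cells, shears the chromatin and pulls the RNA out with biotin-labelled DNA probes that match it, and the DNA that comes along is sequenced. A peak is a place where the captured DNA exceeds the background estimated by the peak caller, and its fold is the ratio of the captured DNA to that background at the summit. Dense groups of peaks can lie over regulatory DNA of an active gene, and they can lie over tandem copies of a repeated sequence, to which short reads cannot be assigned with certainty.

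The promoter windows of 3 genes show DNA at the edge of, or under, strong regions of clusters at the common background. They were taken from RefSeq (build GRCm38.p6, 250 bases before to 50 after the gene's start, 5′ to 3′ on the gene's strand), and capitals mark each CANNTG, the E-box that MyoD-family proteins bind. Slc29a1 encodes a nucleoside transporter and lies beside Mymx, the gene for a microprotein needed for the fusion of myoblasts. Its window at chr17:45599569-45599868 (minus strand) lay partly in the clustered region with the highest fold of these 3. Zap70, a T-cell kinase gene, has its window at chr1:36761548-36761847 (plus strand). That of Capn11, a calpain protease gene, is at chr17:45659260-45659559 (minus strand).
Slc29a1: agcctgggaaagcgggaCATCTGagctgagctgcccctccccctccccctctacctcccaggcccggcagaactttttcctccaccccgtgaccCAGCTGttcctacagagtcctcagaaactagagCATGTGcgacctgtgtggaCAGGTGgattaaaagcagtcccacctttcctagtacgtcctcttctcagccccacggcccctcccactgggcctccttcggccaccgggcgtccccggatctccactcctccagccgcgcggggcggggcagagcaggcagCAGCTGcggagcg
Zap70: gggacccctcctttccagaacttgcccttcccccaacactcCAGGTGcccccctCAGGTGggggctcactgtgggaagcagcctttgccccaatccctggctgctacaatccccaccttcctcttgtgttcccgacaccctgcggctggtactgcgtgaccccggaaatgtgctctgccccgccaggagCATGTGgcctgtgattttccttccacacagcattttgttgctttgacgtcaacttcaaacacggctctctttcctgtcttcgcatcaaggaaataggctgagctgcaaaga
Capn11: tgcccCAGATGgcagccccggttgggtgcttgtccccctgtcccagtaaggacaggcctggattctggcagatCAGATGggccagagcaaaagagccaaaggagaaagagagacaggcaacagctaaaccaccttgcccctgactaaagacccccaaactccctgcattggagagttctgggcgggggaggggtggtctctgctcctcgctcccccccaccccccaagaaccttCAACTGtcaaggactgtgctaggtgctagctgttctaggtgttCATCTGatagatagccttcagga
The best peaks of the regions over these windows had 88.5-fold and 72.9-fold at Slc29a1, 40.4-fold and 67.0-fold at Zap70, and 29.4-fold and 48.2-fold at Capn11, with the list of replicate 1 first in each pair, as in all such pairs below. The windows held 5, 3 and 4 E-boxes in that order, and 3, 3 and 2 of these lay inside the region, which covered 149, 300 and 199 of the 300 bases. Of the 2 CAGCTG, the form preferred by MyoD, both were in the Slc29a1 window and 1 lay inside the region.

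A second set of windows shows a cluster of another kind, in which the DNA itself repeats. Gm4301, Gm4302 and Gm4303 are predicted protein-coding genes that follow each other on chromosome 10, at chr10:100335426-100335725, chr10:100340586-100340885 and chr10:100345722-100346021 for these windows (all plus strand, RefSeq, GRCm38.p6). Capitals mark bases that differ from the Gm4303 window or lie outside it in the best alignment.
Gm4301: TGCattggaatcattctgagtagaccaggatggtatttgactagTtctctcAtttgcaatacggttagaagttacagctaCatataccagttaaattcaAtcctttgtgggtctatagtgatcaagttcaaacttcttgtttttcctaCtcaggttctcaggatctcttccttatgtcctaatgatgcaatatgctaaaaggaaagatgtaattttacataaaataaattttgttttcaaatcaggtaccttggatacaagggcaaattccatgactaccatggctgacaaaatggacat
Gm4302: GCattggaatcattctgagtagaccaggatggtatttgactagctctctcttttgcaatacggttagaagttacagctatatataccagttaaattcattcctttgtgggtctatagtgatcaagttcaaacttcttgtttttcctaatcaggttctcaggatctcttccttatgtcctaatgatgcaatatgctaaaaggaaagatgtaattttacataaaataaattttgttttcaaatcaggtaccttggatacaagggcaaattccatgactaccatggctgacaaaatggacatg
Gm4303: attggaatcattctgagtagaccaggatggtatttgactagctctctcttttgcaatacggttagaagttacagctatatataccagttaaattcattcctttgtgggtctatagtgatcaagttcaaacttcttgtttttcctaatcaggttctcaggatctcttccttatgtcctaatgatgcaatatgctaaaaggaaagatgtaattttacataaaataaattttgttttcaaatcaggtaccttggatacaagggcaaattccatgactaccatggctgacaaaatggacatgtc
Gm4302 had no mismatch to Gm4303 in the aligned part and Gm4301 had 5, and the bases in capitals at the start of both lines were only a shift of the window. The windows of Gm4305 and Gm4307, further along the same cluster, were 100% identical to that of Gm4303. These copies carried 27.4-fold and 40.2-fold at Gm4301, 44.1-fold and 37.1-fold at Gm4302, and 36.7-fold and 37.1-fold at Gm4303.

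Most clusters were small. Of the 955, 595 held 5 regions, 176 held 6, 95 held 7, 34 held 8 and 22 held 9, while 33 held 10 or more and together had 424 regions. The largest had 25. A cluster spanned between 4763 and 68226 bp with a median of 18353 bp, and the spans summed to 18.5 Mb. The regions covered a median of 26.3% of their cluster, with a range of 10.7% to 93.6%, so in most clusters the larger part of the DNA lay between regions and not in them. The median gap to the next region was 2084 bp in clusters and 16505 bp for other shared regions, which follows from the rule.

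Runs just inside and just outside the limit of 20 kb had similar values. The widest run of 5 that was kept spanned 19995 bp and the narrowest that was left out 20002 bp. The 217 runs that spanned 19 to 20 kb had median folds of 10.7 and 11.1 and a median region width of 755.5 bp, and the 275 runs of 20 to 21 kb had 9.67, 11.1 and 722 bp.

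**Figure D1:**
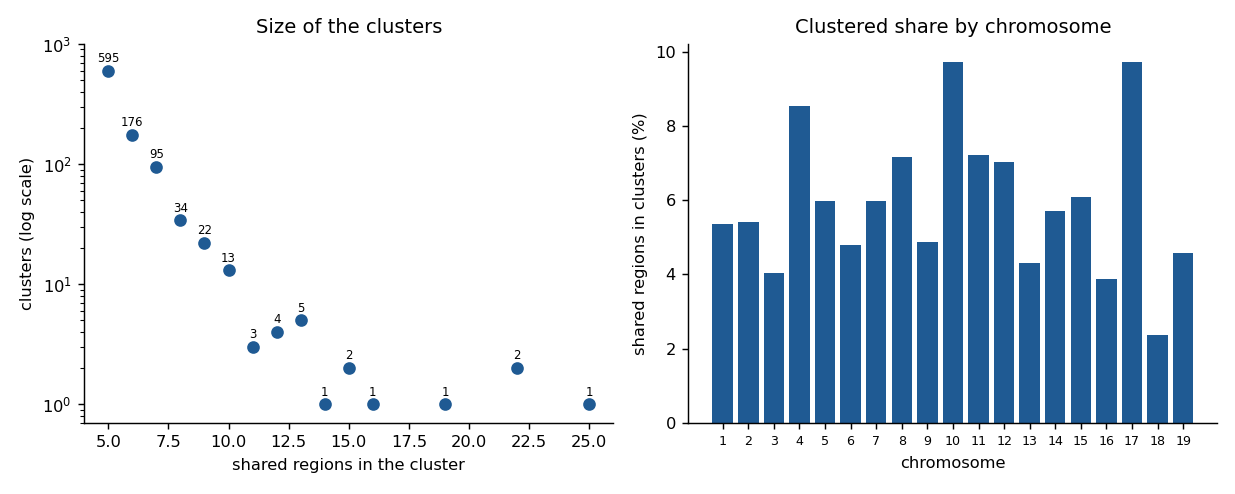
Left, the number of clusters (log scale) against the number of shared regions in a cluster, with 595 clusters of 5 regions and a single cluster of 25. Right, the percentage of each chromosome's shared regions that lay in clusters, which was 2.38% on chromosome 18, 9.73% on chromosome 10 and 9.71% on chromosome 17.

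Clustered regions had slightly lower folds than other shared regions in both lists and were about as wide. Clusters had median folds of 9.92 and 10.8 in these lists, against 11.02 and 12.05 for the 86117 shared regions outside clusters. The median width was 727 bp in clusters and 757 bp outside. A fold of at least 20 in both lists was reached by 996 clustered regions, or 17.8%, and by 20.8% of the others, beside 20.7% of all shared regions. Regions over 3 kb wide numbered 42 in clusters (0.751%) and made up 0.578% of the others, beside 0.589% of all.

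Shared regions were about as alike between the lists inside clusters as outside. Pearson's r of log2 fold across regions was 0.791 in clusters and 0.786 outside. A single peak of each list made up 87.3% of clustered and 87.1% of other regions, and the summits of the strongest peaks lay a median of 76 and 75 bp apart. Peaks with no partner in the other list made up 8.64% of the peaks within cluster spans and 33.2% of those outside in replicate 1, and 11.4% and 43.6% in replicate 2. Both lists entered the rule, which needs partnered peaks, so these are descriptions. In 592 clusters (62.0%) both lists had the same strongest region. The strongest region of a cluster exceeded the weakest by a median of 6.09 times in replicate 1 and 6.25 times in replicate 2, so the regions of a cluster mostly differed severalfold from each other. The ratio ran up to 25.6 and 27.4, and the lowest values were 1.24 and 1.17.

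The fold and p of a peak together give the number of fragments piled up at the summit and the background it was set against. For 100% of peaks of both lists a whole number of fragments met the deposited −log10 p within 0.01. The common background was 1.72 fragments for replicate 1 and 2.24 for replicate 2. A background over 2 times the common value stood at 393 of 6067 clustered peaks (6.48%) and 1.65% of other shared peaks of replicate 1, and at 319 of 5956 (5.36%) and 1.44% in replicate 2. The background is the caller's own local estimate, and the sample it came from is not given in the sources used here.

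In 25 clusters (2.62%), with 242 regions, the median background was over 2 times the common value in both lists. They made up 9 of the 33 clusters with 10 or more regions, against 16 of the 922 smaller ones, and 6 of the 12 largest. Their median folds had medians of 5.53 and 6.06, against 10.3 and 11.4 for the other clusters, although more fragments were piled up in them (medians 43 and 56, against 27.5 and 37). The part of the raised background in these folds was not tested.

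**Figure D2:**
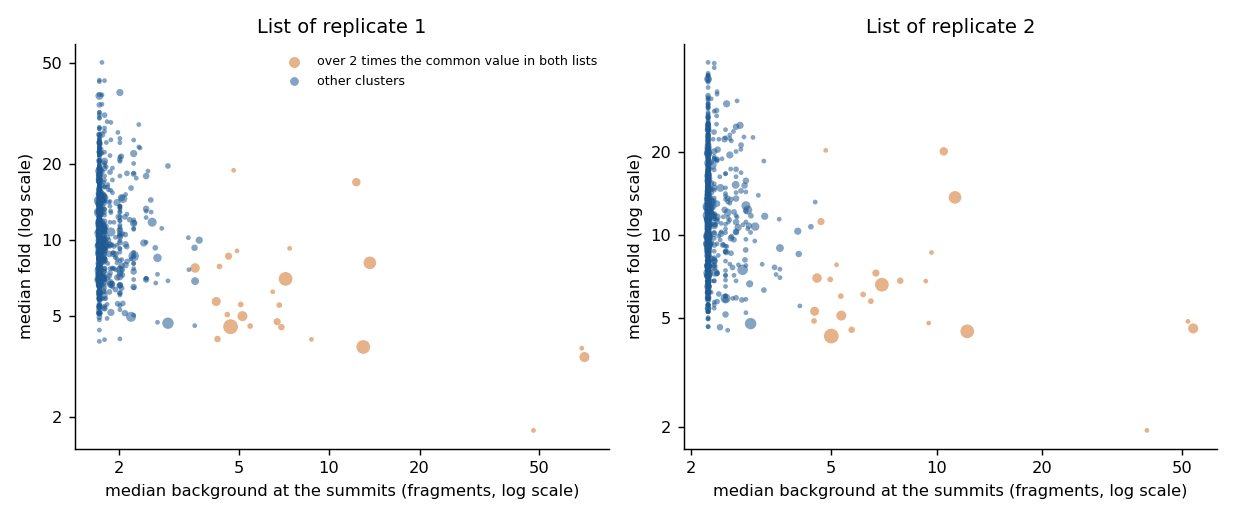
Each circle is a cluster, plotted by the median background at its summits (fragments, log scale) and its median fold (log scale) in the list of replicate 1 (left) and replicate 2 (right). Circle area grows with the number of regions, and the 25 clusters in orange had a background over 2 times the common value in both lists and mostly low folds.

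Of the 12 clusters with most regions, the 6 with raised background come first below. The largest, with 25 regions at chr8:20646936-20710884, lay 187 bp from Gm21119, a predicted gene, and had median folds of 4.55 and 4.28 over a background of 4.70 and 5.02 fragments. It closed a stretch of 6 clusters with 63 regions at chr8:20069273-20710884 that held only 3 protein-coding genes, and all 6 clusters had raised background. The cluster of 13 regions at its start, chr8:20069273-20103291, had median folds of 5.003 and 5.083.

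A pair of clusters held 22 regions. That at chr8:55346448-55396544 covered the predicted genes Gm51591, Gm51573 and Gm51593 and had median folds of 7.02 and 6.58. That at chr11:3114449-3182674 lay over Sfi1, which encodes a centrin-binding protein of the centrosome, with median folds of 3.78 and 4.45 and a background of 12.99 and 12.23 fragments. Both had raised background, and the promoter windows of Gm51591 and Gm51594 in the chromosome 8 cluster were 99.3% identical.

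Neighbouring clusters on chromosome 6 lay over small RNA genes. The cluster at chr6:47651528-47686991 held 10 regions over the gene of Rn4.5s, the rodent 4.5S RNA, and over the predicted genes Gm40363, Gm40365 and Gm40369. Leaving out a narrow region of 2.36-fold and 2.60-fold, its regions had 14.02-fold to 18.95-fold in replicate 1 and 13.98-fold to 24.73-fold in replicate 2. The starts of all 10 lay a median of 4164 bp apart. The promoter windows of Gm36327, Gm40364, Gm40367 and Gm40369 inside it were 100% identical. The next cluster, chr6:47738664-47787024, held 19 regions and the gene of Rny3, a Y RNA, with median folds of 8.13 and 13.7. Both had raised background.

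The highest median backgrounds stood at 3 clusters. At chr9:2999941-3038347, 13 regions covered 93.6% of 38407 bp, 296884 bp from the nearest protein-coding gene, Alkbh8. Every region had between 2.25-fold and 3.70-fold in replicate 1 and between 3.67-fold and 4.83-fold in replicate 2, over median backgrounds of 70.7 and 53.8 fragments. The list of replicate 1 had 34 peaks there and that of replicate 2 had 13. At chr2:98652280-98667414 the background was 69.2 and 52.0 fragments, with 5 regions of median 3.74-fold and 4.84-fold. At chr10:3111466-3116955 the 5 regions had no more than 2.02-fold and 2.03-fold. In these 3 places the background was far above the common value.

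The Gm4301 to Gm4307 array had no raised background, and most of its regions had similar folds. Its 9 regions at chr10:100326232-100363188 began a median of 4958 bp apart. In order along the chromosome they had 11.4, 38.6, 27.4, 44.1, 5.88, 36.7, 37.5, 37.1 and 38.6-fold in replicate 1. In replicate 2 the same regions had 11.7, 36.8, 40.2, 37.1, 4.63, 37.1, 36.8, 40.2 and 36.8-fold. In both lists 7 of the 9 stood at 27.4-fold or more, and the 2 narrowest, each under 1 kb wide, were the lowest. Whether the reads were shared out between identical copies is not given in the sources used here, so the folds of single copies are uncertain.

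**Figure D3:**
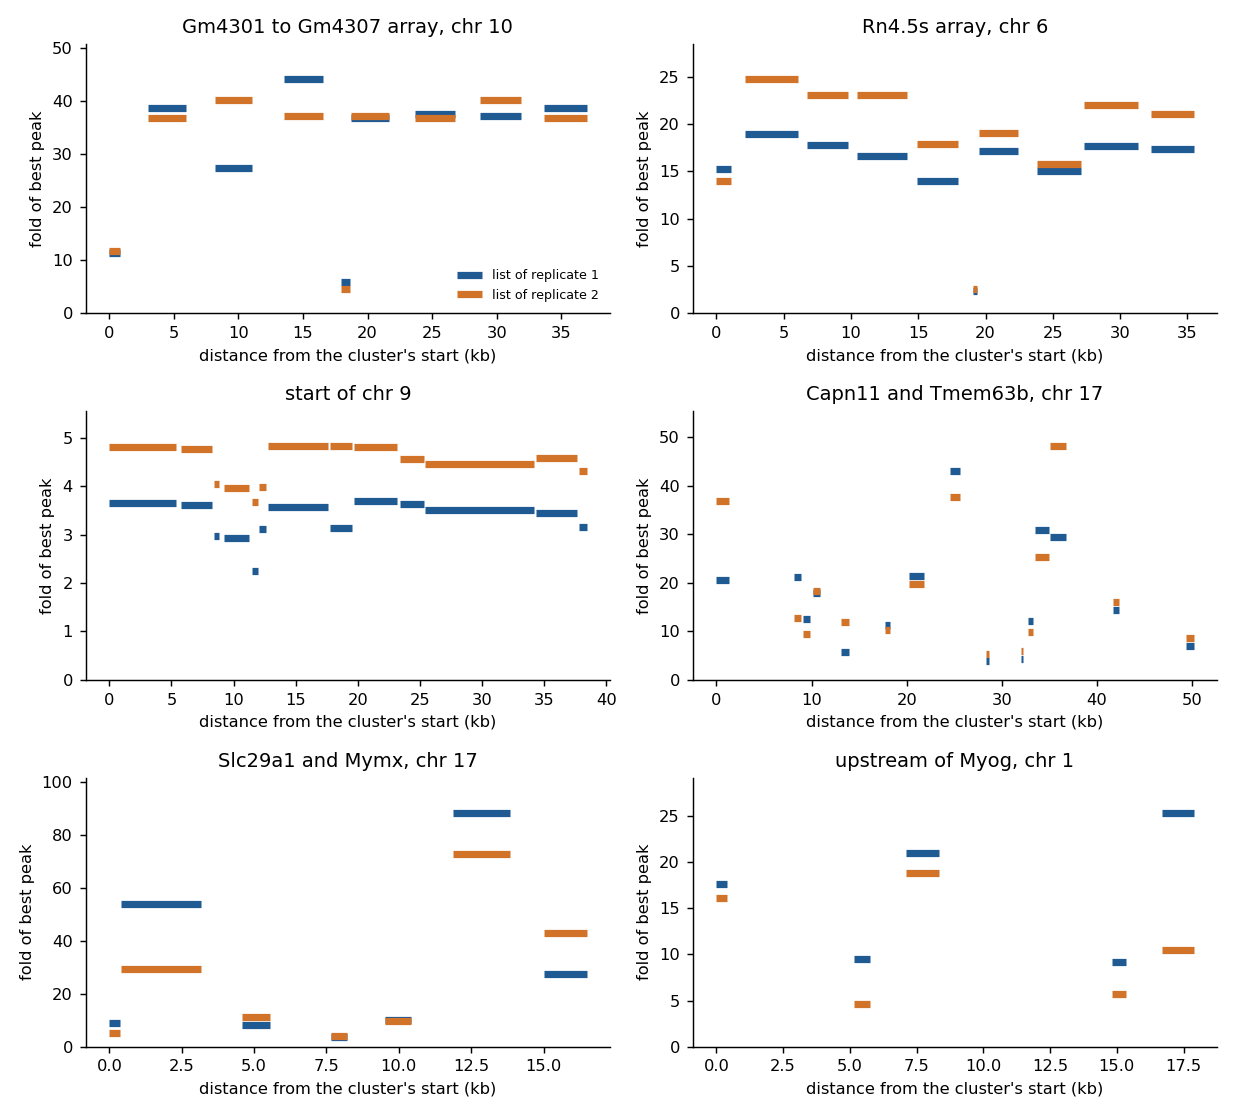
Fold of the best peak of each shared region in 6 clusters, against the distance from the cluster's start, with blue for the list of replicate 1, orange for that of replicate 2, and bar length for region width. The start of chromosome 9 shows a level row of similar folds. The array of Gm4301 to Gm4307 and the Rn4.5s array show such rows only apart from their narrow low regions. The clusters at Capn11, Slc29a1 and Myog show regions of unequal fold, although at Myog the strongest exceeded the weakest by less than in either array.

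The other 6 of the 12 had no raised background. Their regions differed in fold, as did those of the raised clusters except the one at the start of chromosome 9. At Sfi1, for example, folds ran from 2.44 to 18.1 in replicate 1 and from 2.55 to 19.6 in replicate 2. The 15 regions at chr17:45624294-45674431 ran through Capn11 into Tmem63b, a gene for a mechanically gated channel. Their folds spread between 3.90 and 43.0 in replicate 1 and between 5.35 and 48.2 in replicate 2. The strongest was inside Capn11 in replicate 1 and over the facing gene ends in replicate 2. On chromosome 12, 13 regions at chr12:111689701-111733337 overlapped Coa8 and Bag5, a mitochondrial assembly gene and a gene of an Hsp70 co-chaperone. Here 1 region stood far above the rest, with 75.9-fold and 39.6-fold, while the others had at most 16.5-fold and 15.4-fold. On chromosome 4, 13 regions at chr4:130904000-130949342 overlapped Laptm5, a lysosomal gene of blood cells, and Matn1, a cartilage matrix gene, with median folds of 6.96 and 9.88. The 14 regions at chr10:77737638-77790637 overlapped Tspear, Gm3233 and Gm9736, with median folds of 8.64 and 7.46. Copies lay here too, since the promoter windows of Gm7137 and Gm3238 were 97% identical and those of Gm9736 and Gm3250 94%. Those of Gm9736 and Gm3233 were 50.3% identical.

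Inside Ulk4, a gene for a kinase-like protein, 16 regions at chr9:121220285-121250252 were weak, with median folds of 4.69 and 4.75 and a median width of 791.5 bp. The last of them, with 10.03-fold and 22.51-fold, was the exception. Their background, 2.91 and 2.96 fragments, lay between the common value and the limit used for raised. The 15 regions at chr7:59407271-59455438 lay in Snhg14, the long non-coding RNA that hosts imprinted snoRNA arrays, and the cluster overlapped 27 snoRNA genes. Their folds ranged between 5.14 and 24.6 in replicate 1 and between 4.02 and 23.8 in replicate 2 at the common background.

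Of the 6 clusters with the highest folds, all but the Gm4301 array held 5 regions. The 5 regions at chr8:13707893-13724337 lay in Cfap97d2 and had 9.92, 70.2, 48.0, 50.3 and 62.0-fold in replicate 1, and 9.11, 53.7, 36.5, 42 and 53.8-fold in replicate 2. The first region was the lowest in both lists. The 5 regions at chr2:94348760-94362510 lay in Ttc17 and had medians of 42.8-fold and 40.5-fold. C1qtnf5, Mfrp and Rnf26 shared a cluster at chr9:44105757-44122333 with medians of 37.5-fold and 38.0-fold. Adam5, a sperm-protein gene, had 37.5-fold and 37.7-fold at chr8:24760021-24774923, and Abhd2, a lipid hydrolase gene, had 42.2-fold and 31.2-fold at chr7:79336705-79355834.

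The densest clusters lay on both sides of the median folds of all clustered regions, which were 9.92 and 10.8. At chr2:46343135-46347897, 6 regions lay within 4763 bp, 1225693 bp from Zeb2, the nearest protein-coding gene, with medians of 5.60-fold and 5.77-fold. At chr17:7907119-7913445, 7 regions lay over the lncRNA gene Gm1604a, 12555 bp from Tagap, with 6.98-fold and 5.13-fold. Those in Znrf3, a ubiquitin ligase gene of the Wnt pathway, were stronger, with 20.4-fold and 18.5-fold at chr11:5360309-5365607. Those at Gm10634 had 11.0-fold and 15.1-fold at chr9:88748545-88754007.

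Only 7 clusters were found when the rule was applied to the 50000 peaks of each list with the highest −log10 q, which ranks peaks by significance and not by fold, and each overlapped 1 of the 955. They included the chromosome 9 start, both chromosome 6 clusters and the Gm51591 cluster. The remaining 3 lay on 4930519G04Rik (chr5:114879718-114896551), 55895 bp from Elk3 (chr10:93367054-93380077) and 60318 bp from Shisa9 (chr16:12331222-12344212), with maxima of 31.1, 35.4 and 70.8-fold in replicate 1 and 36.1, 41.2 and 49.2-fold in replicate 2. These 3 genes were named after their values were seen.

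Clusters were spread over all autosomes but unevenly. Chromosome 10 had 100 clusters, or 0.766 per Mb, chromosome 17 had 0.632 and chromosome 4 had 0.563. Chromosome 18 had the fewest per length, 0.155 per Mb, and the median over the 19 autosomes was 0.377. Across autosomes the clusters per Mb went with the shared regions per Mb (Pearson r = 0.869, n = 19, both counted from the same regions).

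Some clusters came in groups. Of the 955, 173 (18.1%) lay within 100 kb of another, and 33 stretches held 4 or more clusters no more than 500 kb apart, with 187 clusters in all. Gene density was above the autosomal 8.40 protein-coding genes per Mb in 28 of these 33 stretches, with a median of 19.1. Genes that crossed the edge of a stretch counted in full, which raises these densities, most of all in short stretches. The pair with 15 clusters each differed widely in gene density. That at chr10:79536003-81436924 held 114 protein-coding genes, or 60.0 per Mb, and no cluster with raised background. That at chr4:145568367-147849366 held 17 protein-coding genes, or 7.45 per Mb, 15 of them with Zfp symbols, zinc finger genes that lie there as a tandem family, and 3 of its clusters had raised background. A further stretch, chr17:45587835-47449410, began at Slc29a1 and Mymx and held 9 clusters and 50 genes.

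Clustered regions lay at gene ends more often than other shared regions. The midpoint was within 1 kb of a protein-coding gene end for 389 of 5590 clustered regions, 6.96% with a 95% exact (Clopper-Pearson) interval of 6.31% to 7.66%, and for 4.68% of the others, beside 4.82% of all shared regions. Elsewhere in a gene lay 2310 clustered regions (41.3%) and 39.5% of the others, beside 39.6% of all. Outside protein-coding genes lay 2891 (51.7%) and 55.9% of the others, beside 55.6% of all. The intervals cover counting error only, and regions of a cluster share their gene, so they are too narrow for a comparison of clusters. In all 27 recalculations of these shares under other settings, the clustered share stayed on the same side of the share of the others. Elsewhere in a gene the difference was almost gone with a 2 kb window (37.6% against 37.5%) and at −log10 q of at least 5 (39.7% against 39.4%). The shares of a setting add up to 100% and all settings reuse the same peaks, so the 27 are not separate checks.

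**Figure D4:**
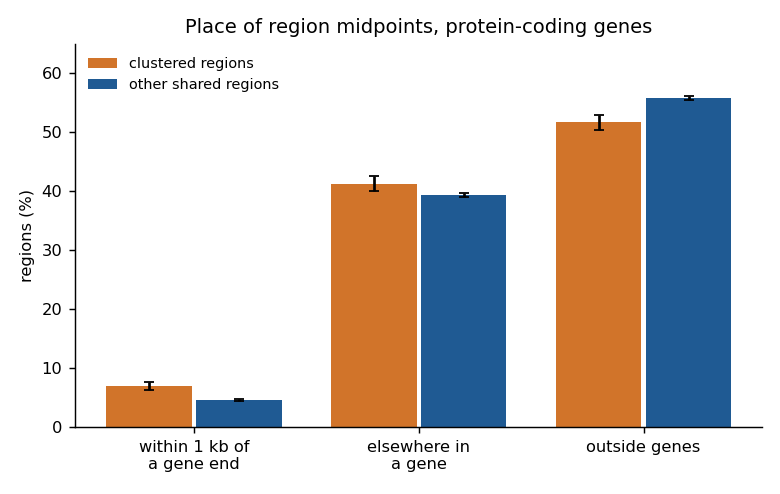
Percentage of clustered regions (orange, left) and of other shared regions (blue, right) whose midpoint lay within 1 kb of a protein-coding gene end, elsewhere in a gene or outside genes. Bars start at 0 and error bars are 95% exact intervals for counting error; the share at gene ends was 6.96% in clusters and 4.68% outside them.

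Of the 955 clusters, 586 (61.4%) overlapped a protein-coding gene. Within 5 kb of a cluster lay 907 of 20665 protein-coding genes, or 4.39%. These genes were longer than the rest, with a median of 24.4 kb against 17.2 kb. By type of gene, a cluster lay within 5 kb of 3.79% of miRNA genes, 3.58% of snoRNA genes, 2.55% of lncRNA genes and 1.801% of pseudogenes. Of the 46 snoRNA genes, 27 lay at the Snhg14 cluster. Several of the 43 miRNA genes lay at a single cluster, chr12:109569154-109585616. Clusters overlapped 25 protein-coding genes at 2 or more places. Zfp978 had 4 of them, and Plekha7, a gene of cell junctions, Gse1, a gene of a chromatin complex, and the predicted gene Gm38510 had 3 each. Some of the clusters of Zfp978 and of Gm38510 had raised background, and those of Plekha7 and Gse1 did not.

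Among the muscle genes few had a cluster. Of 29 myogenic regulators, 2 (Myog and Mymx) had a cluster within 5 kb. Of 42 sarcomere genes it was Mybph, which encodes a myosin-binding protein, and of 18 muscle metabolism genes it was Fabp3, which encodes a fatty acid carrier. None of 25 genes of the neuromuscular junction or of excitation-contraction coupling had 1, with an upper limit of 13.7% from the exact interval. Beside 4.39% of all protein-coding genes, the shares of these lists were not told apart from it at their size.

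Myog encodes myogenin, which drives myoblasts into terminal differentiation. Its cluster, chr1:134271039-134288912, held 5 regions with 17.6, 9.55, 20.9, 9.18 and 25.3-fold in replicate 1 and 16.1, 4.63, 18.8, 5.68 and 10.5-fold in replicate 2. The last region had the highest fold in replicate 1 and was below the first and the middle region in replicate 2. It ended 1092 bp from Myog and overlapped 318 bp of Myoparr, a lncRNA gene beside the Myog promoter known for its part in Myog expression. Mybph and Adora1 shared a cluster upstream on the same chromosome at chr1:134197124-134216968, with best folds of 30.9 and 26.2.

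The cluster of Slc29a1 and Mymx, chr17:45587835-45604321, held the strongest region of any named for a muscle list. Its 7 regions had 8.81, 54.0, 8.24, 3.67, 10.3, 88.5 and 27.5-fold in replicate 1. In replicate 2 they had 5.25, 29.3, 11.1, 4.02, 9.57, 72.9 and 42.9-fold. The sixth region, chr17:45599720-45601659, was the highest in both lists, began just beyond Slc29a1 and overlapped Mymx. Fabp3 had 5 regions at chr4:130293621-130311037 with 19.5, 20.2, 5.01, 9.92 and 6.61-fold in replicate 1 and 14.8, 20.4, 11.7, 13.9 and 12.97-fold in replicate 2.

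The other muscle master genes had no cluster within 5 kb, which only 4.39% of all protein-coding genes had. Myod1 lay 147 kb from the nearest, and Myf5 and Myf6, neighbours on chromosome 10, lay 1804 and 1813 kb from theirs. For scale, the median distance from a cluster to its nearest other cluster was 438 kb.

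Genes of other cell types also had clusters. Of 18 neuronal genes, 2 (Rbfox3, a splicing factor gene, and Tubb3, a neuronal tubulin gene) had a cluster, as had 2 of 15 blood genes (Zap70 and Itga2b, a platelet integrin gene) and 1 of 20 hepatocyte genes (F2, which encodes prothrombin). None of 20 genes of other cells in muscle tissue had 1. The intervals, 1.38% to 34.7% for the neuronal and 1.66% to 40.5% for the blood genes, hold the 4.39% of all protein-coding genes, so lists of this size were not told apart from it. Of 28 cell cycle genes it was Aurka, a mitotic kinase gene, and of 24 ubiquitously expressed genes Eef2, a translation factor gene.

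Gene families differed in their counts. Some of them lie side by side, whereas the Slc transporter, collagen and ribosomal protein genes with a cluster were spread over several chromosomes. Of 1104 olfactory receptor genes, 4 had a cluster (0.362%), as had 3 of 354 vomeronasal receptor genes (0.847%) and 1 of 81 histone genes (H1f0). None of the 57 protocadherins, 39 Hox genes, 109 keratins, 99 cytochrome P450 genes, 27 kallikreins and 42 beta defensins had 1, and the intervals of the protocadherins, Hox genes, kallikreins and beta defensins reached past 4.39%. Of 388 zinc finger genes with Zfp symbols 17 did (4.38%), and Zfp423, a gene of fat and brain progenitors, had a pair of clusters of 12 regions each. Among 362 Slc transporter genes there were 24 (6.63%), among them Slc35c2, Slc6a9, Slc29a1 and Slc32a1. Collagens had 3 of 42 (Col6a1, Col6a4 and Col27a1) and ribosomal protein genes 4 of 91 (Rpl27a, Rpl3l, Rps2 and Rps12), and serpins 2 of 62 (Serpinf1 and Serpinf2). Some genes of a list shared a single cluster, such as Rpl3l with Rps2, Serpinf1 with Serpinf2 and Olfr247 with Olfr819. The olfactory and vomeronasal intervals ended at 0.925% and 2.46%, below the 4.39% of all protein-coding genes, for counting error only. Those of the keratins and cytochrome P450 genes also ended below it, at 3.33% and 3.66%. Any shared region within 5 kb stood at 26.0% of olfactory and 41.2% of vomeronasal receptor genes, beside 72.2% of all protein-coding genes. For keratins it was 45.0% and for cytochrome P450 genes 72.7%. Its part in the low cluster counts was not tested.

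**Figure D5:**
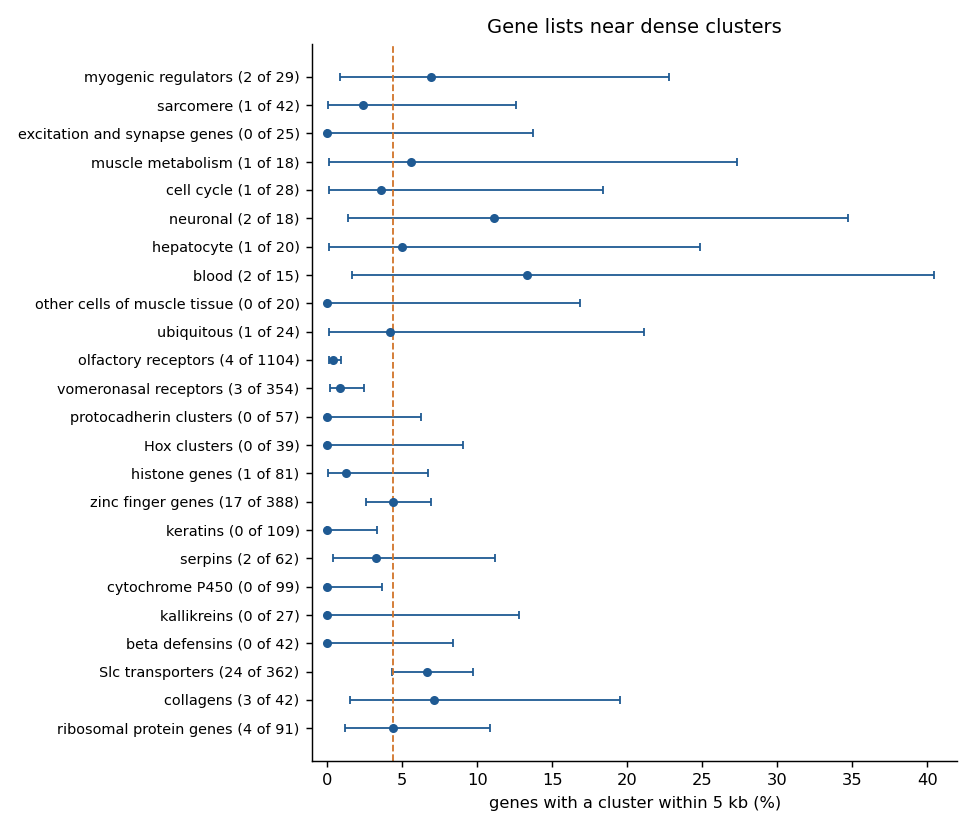
Percentage of the genes of each list with a dense cluster within 5 kb, with 95% exact intervals for counting error, and 4.39% of all protein-coding genes as the dashed line. The olfactory receptors (4 of 1104), vomeronasal receptors (3 of 354), keratins and cytochrome P450 genes lie left of the line with their whole interval. The muscle lists have wide intervals that cross it.

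Few promoters were inside clustered regions. Of 31396 promoter windows, 232 of 190 genes overlapped a clustered region (0.739%), and 9.22% overlapped any shared region. The median GC content was 57% in the clustered windows, 58.7% in windows of other shared regions and 53% over all windows. CAGCTG, which reads the same on both strands, was present in 29 of the 232 (12.5%), in 18.3% of windows with other shared regions and in 16.3% of all windows. CANNTG, of which CAGCTG is a form, stood in 72.4%, 70.3% and 72.2% in that order. GGGCGG on either strand stood in 48.3%, 49.9% and 36.0%, and TATAAA in 6.47%, 8.19% and 13.6%. CCAAT stood in 29.3%, 36.6% and 37.3%. The GA repeat searched for, GAGAGAGA, stood in 1.72%, 4.28% and 3.96%, and the median number of CG pairs in a window was 11, 15 and 7. The CA repeat CACACACA stood in 3.45%, 3.04% and 4.14%. Only CANNTG and this CA repeat had higher shares in the clustered windows than in those of other shared regions. The clustered intervals for counting error were 8.53% to 17.5% for CAGCTG, 23.5% to 35.6% for CCAAT and 0.472% to 4.36% for the GA repeat. That of CAGCTG held the share of all windows, that of the GA repeat held both other shares, and that of CCAAT held neither. Some windows belong to the same gene or to copies, so these intervals are too narrow.

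Copies could be looked for only where promoter windows of different genes stood in the same cluster, and the other 893 clusters were not examined for them. Among 62 clusters with windows of at least 2 genes, 7 held a pair that was at least 90% identical, and these made 28 of 178 pairs. The median identity of all pairs was 45.7%. Besides the arrays above and the Tspear cluster, Ifnl2 and Ifnl3, which encode interferons lambda, were 99% identical. A window of Gm26232 and that of Gm40099 on chromosome 3 were 100% identical, as were those of Gm51595 and Gm51596 on chromosome 8.

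Some miRNA genes lay in clusters. Of 919 autosomal miRNA hairpins, 17 (1.85%) lay inside the span of a cluster, beside 3.64% of protein-coding genes that overlapped one and 0.753% of the autosomal length. Over a clustered region lay 7 of the 17, or 0.762% of all hairpins, and 6.64% of hairpins lay over any shared region.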

How the data were processed

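Peaks of 2 lists in the narrowPeak layout were read as deposited. Per the submitters' processing notes, Bowtie2 2.3.2, Picard 2.9.2, MACS2 2.1.1 and mm10 were used, with no order or settings; the libraries called as treatment and as control, and the threshold, are not stated there. The authors deposited a fold ratio at each summit, p and q as −log10 values, a score and the summit position of each peak. Each list is the authors' pooled list of a replicate, so no value carries an SD or n. All lists of genes, the rule and the members were chosen with earlier results of these data known.

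Shared regions and clusters were found with Python 3.11.15, numpy 2.4.6, pandas 2.3.3 and scipy 1.17.1, and plotted with matplotlib 3.10.9; the code was tested on simulated data. A region takes the fold of its best peak. Pileup n and background b were solved from fold = (n + 1) / (b + 1) and the Poisson p of n. Genes, promoter windows and miRNAs came from RefSeq tables of GRCm38.p6, the assembly of mm10, without exons. Named were the 12 clusters with most regions, the 6 with the highest fold and the 4 densest, with up to 3 genes each, up to 4 members of each gene list with a cluster, and Myod1, Myog, Myf5 and Myf6; other genes were named after their values were seen. Alternatives changed the overlap, the peaks used, the run length, the span, the joining of gaps, the lists, the gene windows and the genes used. No statistical test was made, since both lists entered the rule.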

Additional observations from a re-analysis of the deposited data

Results flagged for a closer look

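The sex chromosomes, which the rule leaves out, also held dense clusters. By the same steps chromosome X had 18 clusters with 114 of its 3215 shared regions (3.55%), and chromosome Y had 8 clusters with 51 of its 2193 (2.33%), against 6.1% of shared regions on the autosomes. They stand out only as a signal outside the chromosomes described above.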

How the results depend on the processing

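The number of clusters (955) and of clustered regions (5590) depended strongly on the rule. A reciprocal overlap of 50% gave 210 and 1223, a fold of at least 5 gave 399 and 2224, and the 50000 peaks with the highest −log10 q gave 7 and 43. A −log10 q of at least 5 gave 660 and 3772. Runs of 4 gave 3411 and 16809, runs of 6 gave 235 and 1657, a span of 10 kb gave 107 and 612, and 30 kb gave 2391 and 15405. Joining gaps up to 500 bp gave 394 and 2219, and up to 1 kb gave 232 and 1273. Single lists gave 5277 to 7125 clusters and 34748 to 49147 regions. Leaving out peaks with background over 2 times the common value, an alternative chosen after seeing the data, gave 869 and 4959, and 867 of the 955 clusters were overlapped by these. The share at gene ends was 8.43% with gaps joined, 7.66% with runs of 6, 3.88% with a 500 bp window, 12.6% with 2 kb, 12.6% with all genes, and 6.262% to 6.505% in single lists. The share elsewhere in genes was 39.7% at −log10 q of at least 5, 43.3%, 37.6% and 47.1% with those windows and all genes, and 42.4% to 44.2% in single lists. At −log10 q of at least 5 and with 2 kb the other shared regions had nearly the same, 39.4% and 37.5%. The share outside genes was 50.4% with gaps joined, 49.7% with runs of 6, 53.5% at −log10 q of at least 5, 49.8% with 2 kb, 40.3% with all genes, and 49.3% to 51.4% in single lists. Median folds were 10.7 and 11.7 at −log10 q of at least 5 and 8.78 and 9.57 with runs of 6. Genes within 5 kb numbered 258 with runs of 6. Of 72 recalculated values, 28 stayed within the limit set for their kind, which for a count was 1.5 times and so took in the counts at −log10 q of at least 5. No paired analysis was possible because the lists are pooled and carry no values of single samples. Read depth and the mapping of repeated sequence are not known, so weak regions and those in copies are the least certain.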

Other observations

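The miRNA genes in clusters had varied places. Mir92b, whose 3p form shares its seed with miR-25, lay over a clustered region, in a cluster of 5 regions at chr3:89222747-89241997. Mir673 and Mir493 lay within a cluster of 6 regions at chr12:109569154-109585616, between the regions and not under them. That cluster lay wholly inside the annotated span of Rtl1, a paternally expressed gene needed in placenta and muscle. Its start also lay in Meg3, the maternally expressed lncRNA of the imprinted Dlk1 interval. The best folds of the cluster were 21.3 in replicate 1 and 19.5 in replicate 2. A separate cluster of 6 regions lay 23648 bp from Dlk1 at chr12:109408493-109428837, with best folds of 29.0 and 24.1. These genes were named after their values were seen.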
